A study of Mus musculus with 24 samples.

Results

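The genes of the proteasome were described in iNKT (invariant natural killer T) cells, lymphocytes that recognise glycolipids held by CD1d through a receptor of nearly fixed sequence. Members were the protein-coding genes whose symbols begin with Psma, Psmb, Psmc, Psmd, Psme, Psmf or Psmg and whose level averaged at least 1 CPM, a count scaled to a library of 1e6 counts, over the 24 libraries. This rule gave 48 of the 55335 genes in the table. In all, 54 symbols began this way. Of the other 6, 4 were pseudogenes, and 2 were protein-coding genes below the level, Psma8 at 0.0159 CPM and Psmb11 at 0.227 CPM, which encode the testis and thymic cortex forms of core subunits. The lowest member, Psmc3ip, averaged 13.8 CPM. All 48 members passed the filter on low counts, and all 48 identifiers matched the GENCODE M21 annotation with their version.

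The iNKT cells were sorted from the mesenteric lymph nodes of female and male C57BL/6J mice. The mothers of these mice had received a fecal transplant (FT) from CD1d-knockout donors (KO FT) or from wild-type donors (WT FT). Each mouse was given 2 µg of alpha-galactosylceramide (aGC), a glycolipid that activates iNKT cells through CD1d, in 200 µL of PBS by gavage, or PBS alone, and cells were collected 24 h later. The 8 groups of 3 libraries were KO FT aGC, KO FT PBS, WT FT aGC and WT FT PBS, each in females and in males. The donor cannot be told apart from dam, litter or cage, and how many animals gave each library is not given in the sources used here, so p-values measure the spread between libraries, which may be technical.

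The proteasome degrades proteins that carry ubiquitin. Its core is a barrel of alpha rings, which gate the entry, around beta rings, of which 3 kinds of subunit cut peptide bonds. A regulatory particle of ATPases and non-ATPase subunits binds ubiquitin chains, removes them and unfolds the substrate. In lymphocytes, and in other cells exposed to interferon gamma, the inducible subunits encoded by Psmb8, Psmb9 and Psmb10 take the places of the constitutive ones encoded by Psmb5, Psmb6 and Psmb7 and form the immunoproteasome, whose products suit presentation by class I molecules. The PA28 activator encoded by Psme1 and Psme2 is induced by the same cytokine. By role, the members were 14 constitutive core subunits, 5 immunoproteasome genes (Psmb8, Psmb9, Psmb10, Psme1 and Psme2), 6 ATPases, 11 non-ATPase subunits, 7 assembly genes, 3 other activators or inhibitors, and 2 other symbols. The last were Psmc3ip, which encodes a cofactor of meiotic recombination and not a subunit, and Psme2b, a copy of Psme2.

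The libraries held 9764931 to 37016768 expected counts, so 3 counts were worth 0.0810 to 0.307 CPM. The iNKT label was checked on Zbtb16, the transcription factor that defines the lineage, at 30.8 to 84.9 CPM, and on Trav11, which gives the invariant receptor its alpha chain variable part, at 325 to 880 CPM over all libraries. The naive and CD8 T cell markers and the myeloid markers each moved with sex and treatment together, in opposite senses. Cd8a, which most mouse iNKT cells lack, averaged 189 CPM in KO FT aGC females and 7.59 CPM in KO FT aGC males, against 5.2 CPM in KO FT PBS females and 136 CPM in KO FT PBS males. It averaged 245 CPM in WT FT aGC females and 6.21 CPM in WT FT aGC males, against 6.30 CPM in WT FT PBS females and 287 CPM in WT FT PBS males. The summed level of the 9 naive and CD8 T cell markers split the libraries the same way, at 2708 to 3394 CPM in aGC females and 1073 to 1199 CPM in aGC males, against 1287 to 1415 CPM in PBS females and 3151 to 4037 CPM in PBS males. The 9 B cell markers summed to 511 to 642 CPM in KO FT aGC libraries, against 969 to 1065 CPM in KO FT PBS libraries, and to 453 to 717 CPM in WT FT aGC libraries, against 988 to 1072 CPM in WT FT PBS libraries. The 9 iNKT and T cell markers summed to 5356 to 6370 CPM in KO FT aGC libraries, against 7589 to 9183 CPM in KO FT PBS libraries, and to 5595 to 6161 CPM in WT FT aGC libraries, against 8113 to 8441 CPM in WT FT PBS libraries. Both sums were lower after aGC without overlap, and all 9 iNKT and T cell markers fell by the edgeR test described below with either donor. The 9 myeloid markers summed to 2.91 to 70.1 CPM. In KO FT mice they summed to 40.4 to 49.3 CPM in PBS females and 2.91 to 3.47 CPM in PBS males. After aGC they summed to 11.2 to 12.3 CPM in KO FT females and 29.7 to 35.3 CPM in KO FT males. In WT FT mice the sums were 66.9 to 70.1 CPM in PBS females and 25.5 to 30.6 CPM in PBS males. After aGC they were 13.8 to 15.85 CPM in WT FT females and 19.1 to 21.9 CPM in WT FT males. Within each donor and treatment the Cd8a-low sex thus held the higher myeloid sum. In comparisons averaged over the sexes each side held 1 Cd8a-high and 1 Cd8a-low sex. The part of these markers in the aGC changes below was not tested. Counts are also given for PBS females and aGC males alone, the Cd8a-low libraries, which was a choice made after the data were seen. There aGC against PBS is also males against females, so treatment and sex cannot be told apart in that comparison.

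Divided by transcript length, the immunoproteasome genes Psme2, Psmb8 and Psme1 were the highest members. The other immunoproteasome genes, Psmb10 and Psmb9, ranked 14 and 19 of the 48, at 231.5 and 187.2 CPM per kb. Psme2 stood at 959 CPM per kb over the 24 libraries, Psmb8 at 828, Psme1 at 673, and the core subunit genes Psmb3, Psma7 and Psmb6 at 519.8, 485 and 459 CPM per kb. The lowest were Psmd9 at 20.9, Psmc3ip at 10.9 and Psme4 at 2.79 CPM per kb. Part of these levels is uncertain, because 33.5% of the 31-base words of Psme2 transcripts also occur in other genes, as do 78.4% of those of Psme2b, 71.7% of those of Psmb5 (59.8% in Gm3375) and 58.7% of those of Psma5. Psmb9 overlaps Tap1 on the opposite strand, and the library kit does not mark strand.

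The first question was how the proteasome genes differed at 24 h after aGC. They took 1.39 to 1.5% of all counts in KO FT aGC libraries, against 1.01 to 1.28% in KO FT PBS libraries, and 1.65 to 1.84% in WT FT aGC libraries, against 1.14 to 1.20% in WT FT PBS libraries. These shares did not overlap between aGC and PBS with either donor. In bulk RNA, fewer cells of a type and less RNA per cell cannot be told apart. In edgeR's quasi-likelihood test averaged over the sexes, with 16 residual degrees of freedom and Benjamini-Hochberg adjustment over 15953 genes at 0.05, 38 of the 48 members rose after aGC and 4 fell in KO FT mice. The background there was 28.1% of all tested genes higher and 30.1% lower. After the WT FT transplant 45 members rose and 1 fell, against 30.9% of all tested genes higher and 37.5% lower. The median log2 change of the members was 0.48 in KO FT and 0.81 in WT FT mice, against −0.03 and −0.11 over all tested genes. With each group of 3 libraries summed to 1 profile, which leaves 3 residual degrees of freedom, 2 members rose in KO FT mice, Psma6 and Psmd1, against 1.92% of all tested genes higher and 0.157% lower, and 26 rose in WT FT mice, against 7.39% higher and 2.75% lower, with 0 members falling in either. The members' medians in that fit were 0.46 in KO FT and 0.82 in WT FT mice. Its terms were treatment, donor, their interaction and sex, with none for a response that differs between the sexes. Its biological coefficient of variation was 0.424, against 0.108 between libraries, and takes in such differences between the sexes. In the Cd8a-low libraries alone, 33 members rose and 7 fell in KO FT mice (26.6% and 25.4% of all tested genes), and 44 rose and 3 fell in WT FT mice (30.1% and 33.2%).

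The constitutive core rose. All 14 core genes passed the test upwards in both transplant groups, against 28.1% of all tested genes in KO FT and 30.9% in WT FT mice. On the log2 scale they rose by 0.16 to 0.98 in KO FT mice (median 0.58) and by 0.45 to 1.42 in WT FT mice (median 0.90). With each library's trend on transcript length removed, an alternative given below, all 14 still rose (27.4% of all tested genes in KO FT and 29.7% in WT FT mice). The medians were then 0.59 in KO FT and 0.65 in WT FT mice. Of the 14 responses, 8 were then smaller in KO FT mice and 1 was larger, against 19.5% and 21.4% of all tested genes (median −0.15). In the Cd8a-low libraries alone 11 of the 14 passed in KO FT mice, with Psmb1 at −0.073, Psmb3 at −0.058 and Psmb6 at 0.075, and all 14 in WT FT mice. With 1 profile per group, 1 passed in KO FT mice and 11 in WT FT mice, at medians of 0.56 and 0.90. The alpha subunit gene Psma6 moved most. Its lowest, median and highest levels were 437, 447 and 493 CPM in the 6 KO FT aGC libraries, against 212, 232 and 249 CPM in the 6 KO FT PBS libraries. They were 542, 651 and 784 CPM in WT FT aGC libraries, against 231, 242 and 256 CPM in WT FT PBS libraries. The aGC and PBS libraries did not overlap, and the log2 change was 0.98 ± 0.03 in KO FT mice (SE, 1.97-fold, adjusted p = 9.4e-18) and 1.42 ± 0.03 in WT FT mice (2.67-fold, adjusted p = 4.74e-21). Psma7, another alpha subunit gene, had 444, 455 and 529 CPM in KO FT aGC libraries, against 237, 305 and 383 CPM in KO FT PBS libraries. It had 603, 677 and 796 CPM in WT FT aGC libraries, against 298, 312 and 319 CPM in WT FT PBS libraries, and also rose without overlap with either donor, by 0.63 and 1.14 on the log2 scale.

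**Figure D1:**
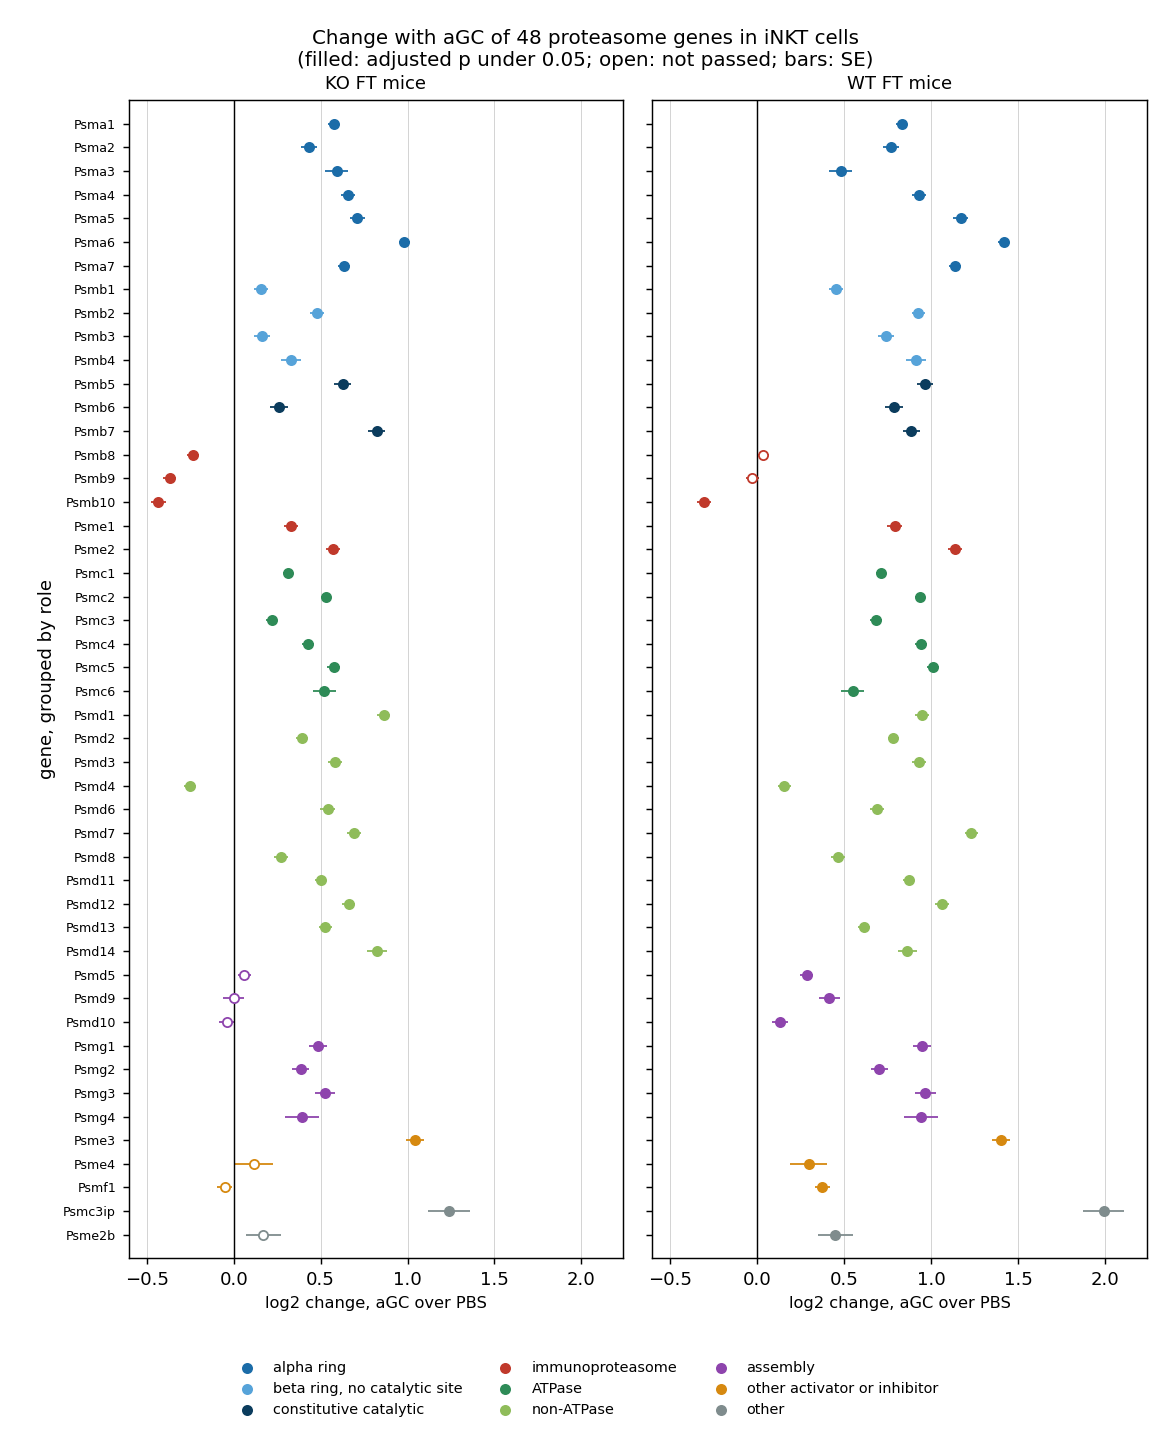
Log2 change of each proteasome gene after aGC, relative to PBS (horizontal axis), with its standard error, in KO FT mice and in WT FT mice, genes grouped by role down the page. In WT FT mice the core genes lie between 0.45 and 1.42, while the immunoproteasome catalytic genes Psmb8, Psmb9 and Psmb10 lie between −0.31 and 0.03.

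The regulatory particle moved with the core. All 6 ATPase genes rose with either donor, by a median of 0.47 in KO FT and 0.82 in WT FT mice on the log2 scale. Of the 11 non-ATPase genes, 10 rose and 1 fell in KO FT mice (median 0.54), and all 11 rose in WT FT mice (median 0.86). The background for both sets was 28.1% of all tested genes higher and 30.1% lower in KO FT mice. In WT FT mice it was 30.9% higher and 37.5% lower. Psmd7, whose product pairs with the deubiquitinase Psmd14 in the lid, had 226, 247 and 278 CPM in KO FT aGC libraries, against 122, 159.6 and 185 CPM in KO FT PBS libraries. It had 338, 376 and 406 CPM in WT FT aGC libraries, against 146, 159.6 and 169 CPM in WT FT PBS libraries. Its log2 change was 0.69 ± 0.04 in KO FT (adjusted p = 2.13e-13) and 1.23 ± 0.04 in WT FT mice (adjusted p = 1.9e-18). The exception was Psmd4, which encodes a ubiquitin receptor of the particle. It had 285, 323 and 335 CPM in KO FT aGC libraries, against 309, 378 and 455 CPM in KO FT PBS libraries, and fell by 0.25 ± 0.04 on the log2 scale (adjusted p = 2.91e-06), although the libraries overlapped. Psmd4 rose in WT FT mice by 0.15 ± 0.04 (adjusted p = 0.000712), with 381, 396 and 403 CPM after aGC, against 331, 354 and 374 CPM after PBS.

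The immunoproteasome catalytic genes did not follow the core. Averaged over the sexes, Psmb8, Psmb9 and Psmb10 all fell after aGC in KO FT mice. In WT FT mice Psmb10 alone of them fell, and the others did not pass the test. In KO FT mice their summed level, most of it Psmb8, separated in females and overlapped in males. It was 1585 to 1651 CPM in KO FT aGC females, against 2300 to 2414 CPM in KO FT PBS females. In KO FT males it was 1515 to 1798 CPM after aGC, against 1604 to 1693 CPM after PBS. In WT FT mice the summed level separated in males, at 1768 to 1827 CPM after aGC, against 1923 to 1949 CPM after PBS. It overlapped in WT FT females, at 2112 to 2207 CPM after aGC, against 2062 to 2118 CPM after PBS. Psmb8 (ENSMUSG00000024338.15, chromosome 17, 34197721 to 34201454, plus strand, GRCm38) encodes the chymotrypsin-like subunit beta5i. Its lowest, median and highest levels were 1082, 1124 and 1288 CPM in KO FT aGC libraries, against 1104, 1373 and 1642 CPM in KO FT PBS libraries. They were 1303, 1447 and 1579 CPM in WT FT aGC libraries, against 1330.0, 1410.0 and 1517 CPM in WT FT PBS libraries. Libraries overlapped with either donor, and the log2 change was −0.23 ± 0.03 in KO FT (0.850-fold, adjusted p = 3.15e-06) and 0.03 ± 0.03 in WT FT mice (adjusted p = 0.44). The KO FT decrease lay in the females, with 1140.0, 1107 and 1182 CPM after aGC, against 1577, 1642 and 1628 CPM after PBS. In KO FT males the libraries held 1082, 1088 and 1288 CPM after aGC, against 1170.0, 1104 and 1114 CPM after PBS, and did not separate. The female change minus the male one was −0.53 ± 0.07 (adjusted p = 1.76e-06).

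Psmb9 (ENSMUSG00000096727.3, chromosome 17, 34181987 to 34187764, minus strand), which encodes beta1i, had 198, 214 and 225 CPM in KO FT aGC libraries, against 224, 273 and 338 CPM in KO FT PBS libraries. Its WT FT libraries had 206, 264 and 319 CPM after aGC, against 257, 262 and 277 CPM after PBS. It fell by 0.37 ± 0.04 on the log2 scale in KO FT mice (0.775-fold, adjusted p = 1.24e-08), and its change in WT FT mice was −0.03 ± 0.04 (adjusted p = 0.48). Psmb10 (ENSMUSG00000031897.9, chromosome 8, 105935735 to 105938444, minus strand), which encodes the trypsin-like beta2i, had 234, 256 and 285 CPM in KO FT aGC libraries, against 263, 351 and 448 CPM in KO FT PBS libraries. Its WT FT libraries had 236, 268 and 319 CPM after aGC, against 325, 332 and 343 CPM after PBS. Psmb10 was the one member whose 6 WT FT aGC libraries all lay below the 6 WT FT PBS libraries, as did 15.5% of all tested genes, while 39 members lay wholly above, against 17.9% of all tested genes. Its log2 change was −0.43 ± 0.04 in KO FT (0.741-fold, adjusted p = 3.56e-09) and −0.31 ± 0.04 in WT FT mice (0.807-fold, adjusted p = 5.22e-07). In KO FT mice 29 members lay wholly above and 0 wholly below, against 12.6% and 10.7% of all tested genes. In the Cd8a-low libraries alone, where sex differs with treatment, the WT FT changes of Psmb8, Psmb9 and Psmb10 were −0.15, −0.28 and −0.48, all past the threshold (adjusted p = 0.033, 0.00135 and 9.81e-06).

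The constitutive catalytic genes in the same positions rose. Psmb5 (ENSMUSG00000022193.7, chromosome 14, 54614119 to 54618022, minus strand), the counterpart of Psmb8, had 237, 260.5 and 300.5 CPM in KO FT aGC libraries, against 142, 171 and 197 CPM in KO FT PBS libraries. In WT FT mice it had 344, 366 and 377 CPM after aGC, against 178, 186 and 199.6 CPM after PBS. The groups did not overlap with either donor, and the log2 change was 0.63 ± 0.05 in KO FT (1.54-fold, adjusted p = 9.63e-11) and 0.96 ± 0.05 in WT FT mice (1.95-fold, adjusted p = 1.51e-14). Psmb6 (ENSMUSG00000018286.6, chromosome 11, 70525367 to 70527858, plus strand), the counterpart of Psmb9, had 324, 332 and 421 CPM in KO FT aGC libraries, against 227, 288 and 371 CPM in KO FT PBS libraries, and 482, 529 and 549 CPM in WT FT aGC libraries, against 287, 303 and 317 CPM in WT FT PBS libraries. Its KO FT libraries overlapped and its WT FT libraries did not, with log2 changes of 0.26 ± 0.05 (adjusted p = 9.57e-05) and 0.78 ± 0.05 (adjusted p = 1.21e-12). Psmb7 (ENSMUSG00000026750.6, chromosome 2, 38588036 to 38644087, minus strand), the counterpart of Psmb10, had 76.8, 87.9 and 96.8 CPM in KO FT aGC libraries, against 38.8, 50.5 and 57.1 CPM in KO FT PBS libraries, and 91.9, 108 and 124 CPM in WT FT aGC libraries, against 53.3, 59.5 and 60.8 CPM in WT FT PBS libraries. It rose with either donor without overlap, by 0.82 ± 0.05 in KO FT (adjusted p = 5.21e-13) and 0.89 ± 0.05 in WT FT mice (adjusted p = 4.29e-14).

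**Figure D2:**
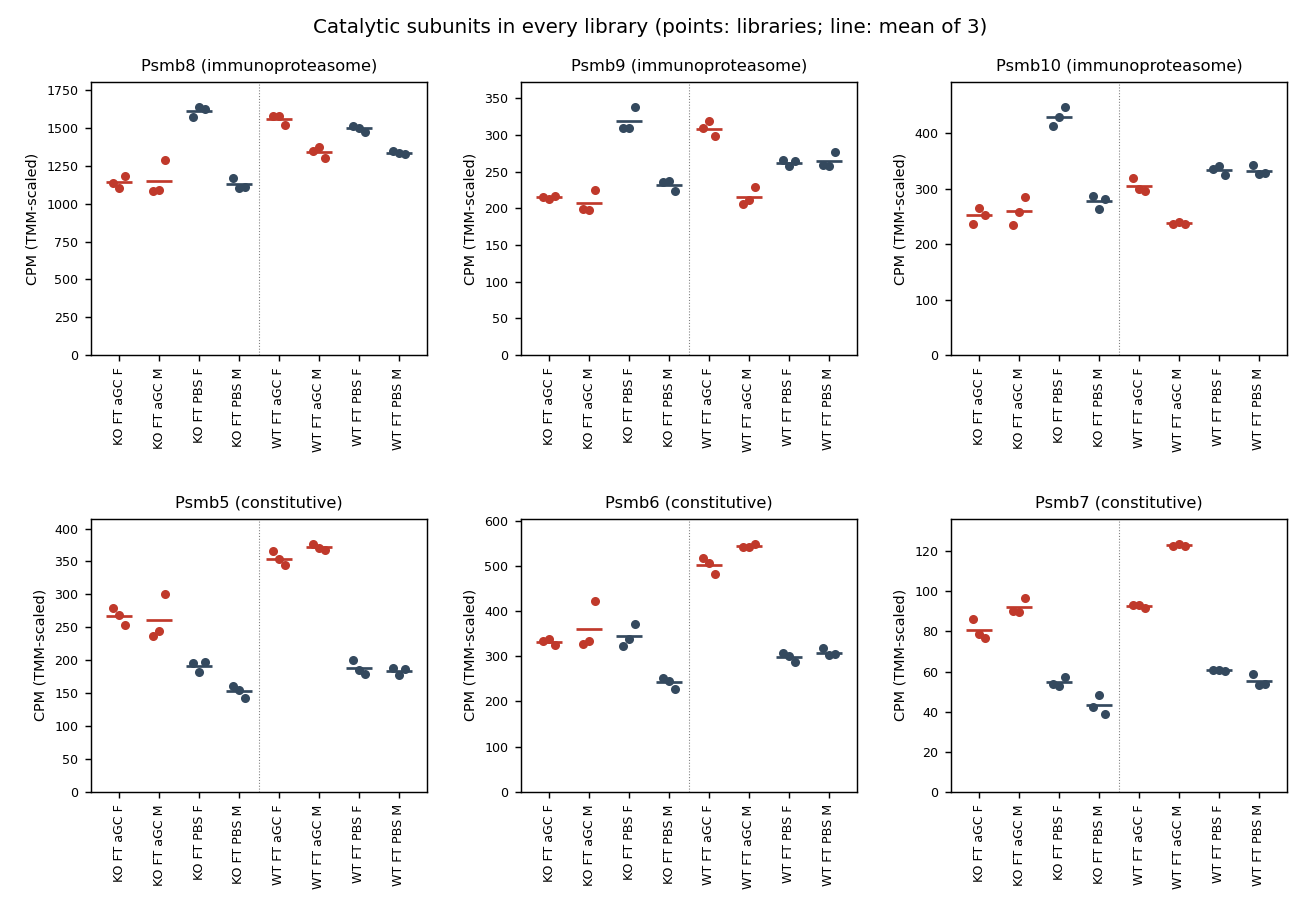
Level in CPM (vertical axis, from 0) of the constitutive and immunoproteasome catalytic genes in each of the 24 libraries, by donor, treatment and sex, with aGC left of PBS and each short line the mean of 3 libraries. Psmb5 sits at 237 to 377 CPM in aGC libraries and at 142 to 199.6 CPM in PBS libraries, while Psmb8 overlaps between treatments.

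The sequences before the transcription start are shown for 5 catalytic genes and the core gene Psma6, chosen after their values were seen because they moved in opposite directions, as 250 bases upstream of the RefSeq start on GRCm38.p6 (5′ to 3′ on the strand of the gene). The genes are Psmb8 at chr17:34197945-34198194 (plus strand), Psmb9 at chr17:34187331-34187580 (minus), Psmb10 at chr8:105938393-105938642 (minus), Psmb5 at chr14:54617996-54618245 (minus), Psmb6 at chr11:70525107-70525356 (plus) and Psma6 at chr12:55383972-55384221 (plus). The RefSeq starts of Psmb8 and Psmb9 lie 474 and 434 bases downstream of the GENCODE start. Their windows therefore lie inside the annotated genes and do not reach the bases before the GENCODE start. The RefSeq starts of the other 4 lie 0 to 52 bases from it. Capitals mark matches, on either strand, to the core of the antioxidant response element TGACNNNGC, to which Nrf1 and Nrf2 bind, the gamma-activated site TTCNNNGAA, the interferon-stimulated response element, or the CCAAT box.
Psmb8: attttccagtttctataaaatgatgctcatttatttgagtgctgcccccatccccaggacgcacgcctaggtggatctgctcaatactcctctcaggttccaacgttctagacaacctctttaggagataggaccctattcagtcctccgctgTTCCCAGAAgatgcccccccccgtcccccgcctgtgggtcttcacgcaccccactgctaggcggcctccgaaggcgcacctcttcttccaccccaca
Psmb9: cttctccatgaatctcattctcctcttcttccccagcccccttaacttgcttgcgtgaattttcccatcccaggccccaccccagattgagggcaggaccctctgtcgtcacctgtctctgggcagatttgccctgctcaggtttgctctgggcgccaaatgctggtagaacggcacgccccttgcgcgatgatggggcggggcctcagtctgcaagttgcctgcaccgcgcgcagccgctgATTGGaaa
Psmb10: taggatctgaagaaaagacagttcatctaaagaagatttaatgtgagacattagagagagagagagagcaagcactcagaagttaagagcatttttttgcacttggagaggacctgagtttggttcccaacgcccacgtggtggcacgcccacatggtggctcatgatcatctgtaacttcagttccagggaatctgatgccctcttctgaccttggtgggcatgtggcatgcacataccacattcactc
Psmb5: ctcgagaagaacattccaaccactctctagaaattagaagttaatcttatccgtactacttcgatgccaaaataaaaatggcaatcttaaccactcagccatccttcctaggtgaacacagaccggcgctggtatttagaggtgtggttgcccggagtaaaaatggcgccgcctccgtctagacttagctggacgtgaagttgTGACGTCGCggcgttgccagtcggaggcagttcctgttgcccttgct
Psmb6: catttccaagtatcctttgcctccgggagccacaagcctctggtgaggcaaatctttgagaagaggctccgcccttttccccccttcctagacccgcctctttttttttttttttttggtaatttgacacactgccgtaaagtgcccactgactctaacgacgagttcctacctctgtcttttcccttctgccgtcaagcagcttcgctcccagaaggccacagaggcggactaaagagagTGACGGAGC
Psma6: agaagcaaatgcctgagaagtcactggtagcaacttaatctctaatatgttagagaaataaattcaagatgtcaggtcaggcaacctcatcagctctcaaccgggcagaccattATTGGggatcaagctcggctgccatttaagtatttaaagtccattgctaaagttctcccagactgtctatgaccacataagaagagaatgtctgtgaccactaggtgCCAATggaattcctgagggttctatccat

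In these windows Psmb5 and Psmb6 each held an antioxidant response element core, 47 to 39 and 9 to 1 bases before the start, and Psmb8 held a gamma-activated site 97 to 89 bases before it. Of the 48 members, 41 had a RefSeq promoter entry. The 250 bases before the start were searched, in members and in all promoters alike. The antioxidant core occurred in 5 of the 41 (12.2%; Psmb5, Psmb6, Psmc6, Psmd12 and Psmd9), against 10.5% of the 20595 mouse promoters in the table. The gamma-activated site occurred in 2 (4.88%; Psmb8 and Psmg1), against 6.81%, and the interferon-stimulated element in 3 (7.32%; Psmb3, Psmd4 and Psmd9), against 3.00%. The CCAAT box occurred in 14 (34.1%), against 35.1%, and the NF-kappa-B site in 22 (53.7%), against 49.2%. A match is a run of letters and not a measured binding site.

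Set against each other per kb of transcript within a library, the inducible gene of each pair was lower relative to its constitutive counterpart after aGC with either donor. The Psmb8 to Psmb5 ratio was 2.26 to 2.58 in KO FT aGC libraries, against 3.94 to 4.99 in KO FT PBS libraries, and 1.96 to 2.47 in WT FT aGC libraries, against 3.94 to 4.54 in WT FT PBS libraries. The Psmb9 to Psmb6 ratio was 0.315 to 0.394 in KO FT aGC libraries, against 0.538 to 0.583 in KO FT PBS libraries, and 0.225 to 0.372 in WT FT aGC libraries, against 0.481 to 0.543 in WT FT PBS libraries. The Psmb10 to Psmb7 ratio was 2.30 to 2.98 in KO FT aGC libraries, against 4.82 to 7.19 in KO FT PBS libraries, and 1.70 to 3.02 in WT FT aGC libraries, against 4.79 to 5.43 in WT FT PBS libraries. In none of the 3 pairs did the 6 aGC and 6 PBS libraries overlap with either donor. No test was made on these ratios, which combine genes whose own tests stand above. Psmb8 remained above Psmb5 per kb in every library.

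**Figure D3:**
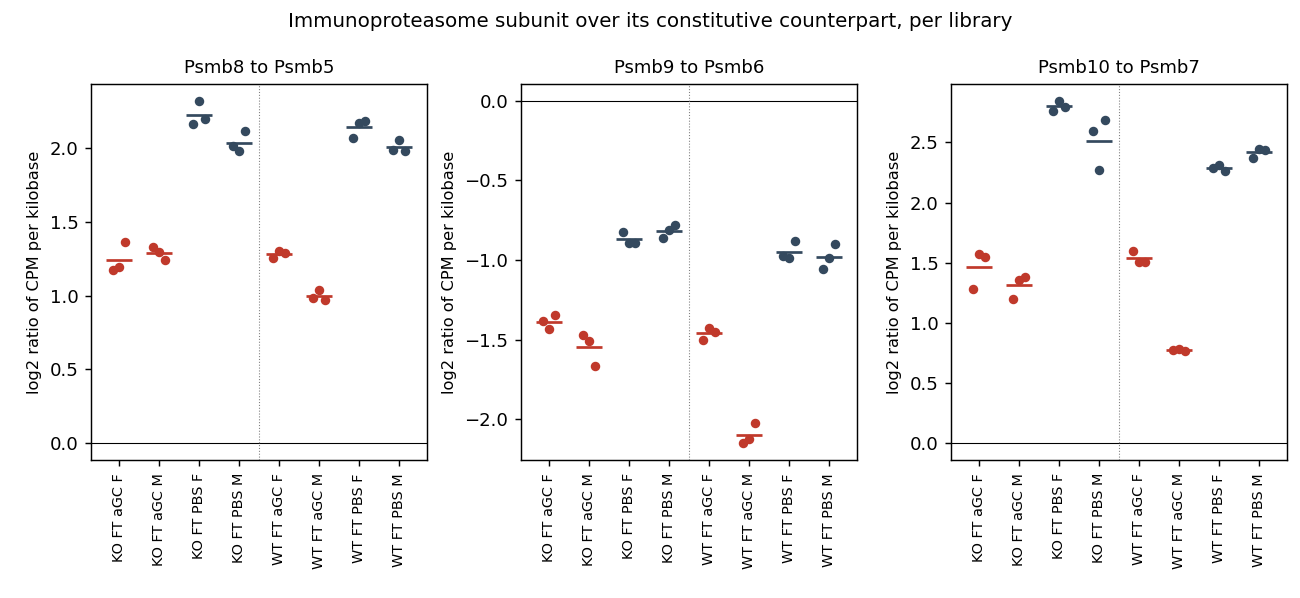
Log2 ratio of levels per kb of transcript of each immunoproteasome catalytic gene to its constitutive counterpart (vertical axis), 1 point per library, by donor and treatment with aGC left of PBS. The Psmb8 to Psmb5 log2 ratio lies at 0.97 to 1.37 in aGC libraries and at 1.98 to 2.32 in PBS libraries.

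The PA28 activator genes rose with the core and unlike the inducible catalytic genes. Psme1 (ENSMUSG00000022216.17, chromosome 14, 55578123 to 55581529, plus strand) had 688, 773 and 823 CPM in KO FT aGC libraries, against 558, 598 and 708 CPM in KO FT PBS libraries, and 987, 1015 and 1086 CPM in WT FT aGC libraries, against 525, 593 and 669 CPM in WT FT PBS libraries. Its log2 change was 0.33 ± 0.04 in KO FT (adjusted p = 3.77e-07) and 0.79 ± 0.04 in WT FT mice (adjusted p = 4.5e-14). Psme2 (ENSMUSG00000079197.10, chromosome 14, 55587441 to 55591113, minus strand) had 909, 940.4 and 1071 CPM in KO FT aGC libraries, against 502, 635 and 876 CPM in KO FT PBS libraries, and 1351, 1409 and 1516 CPM in WT FT aGC libraries, against 592, 652 and 694 CPM in WT FT PBS libraries. It rose by 0.57 ± 0.04 in KO FT (1.49-fold, adjusted p = 1.76e-11) and 1.14 ± 0.04 in WT FT mice (2.20-fold, adjusted p = 2.54e-17), the WT FT libraries of both genes being fully separated. Among the 5 immunoproteasome genes, 2 rose and 3 fell in KO FT mice, and 2 rose, 1 fell and 2 did not pass in WT FT mice.

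Of the other activators, Psme3, which encodes the nuclear PA28 gamma, rose most. It had 406, 477 and 509 CPM in KO FT aGC libraries, against 196, 228 and 258 CPM in KO FT PBS libraries, and 515, 560.2 and 699 CPM in WT FT aGC libraries, against 178, 224 and 265 CPM in WT FT PBS libraries. The log2 change was 1.04 ± 0.05 in KO FT (2.06-fold, adjusted p = 3.31e-14) and 1.40 ± 0.05 in WT FT mice (2.64-fold, adjusted p = 5.95e-17), with no overlap. Psmf1, which encodes the inhibitor PI31, had 90.8, 104 and 114 CPM in KO FT aGC libraries, against 88.9, 106 and 132 CPM in KO FT PBS libraries, and 128, 136 and 148 CPM in WT FT aGC libraries, against 99.0, 108 and 112 CPM in WT FT PBS libraries. It passed the test in WT FT mice and not in KO FT mice, as did Psme4, the gene of the activator PA200. The change differed between the donors by −0.43 ± 0.06 for Psmf1 (adjusted p = 1.11e-05) and did not pass that test for Psme4 (−0.17 ± 0.15, adjusted p = 0.378). The largest fold of any member belonged to Psmc3ip, which had 13.8, 14.4 and 22.9 CPM in KO FT aGC libraries, against 4.98, 6.80 and 7.81 CPM in KO FT PBS libraries, and 24.5, 27.4 and 28.7 CPM in WT FT aGC libraries, against 5.15, 6.64 and 9 CPM in WT FT PBS libraries. It rose 2.36-fold in KO FT (adjusted p = 4.93e-09) and 3.98-fold in WT FT mice (adjusted p = 3.35e-13).

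Of the 7 assembly genes, 4 rose in KO FT and 7 in WT FT mice, against 28.1% and 30.9% of all tested genes. With 1 profile per group their median log2 changes were 0.36 in KO FT and 0.72 in WT FT mice. In the Cd8a-low libraries alone 3 rose and 2 fell in KO FT mice (26.6% and 25.4% of all tested genes). There 6 rose and 0 fell in WT FT mice (30.1% and 33.2%). Psmg1 to Psmg4, which encode the chaperones PAC1 to PAC4 of the core, rose with either donor. Psmg1 had 61.9, 70.5 and 85.8 CPM in KO FT aGC libraries, against 47.5, 51.7 and 58.1 CPM in KO FT PBS libraries, and 90.3, 106 and 115 CPM in WT FT aGC libraries, against 49.9, 53.9 and 56.9 CPM in WT FT PBS libraries. Psmg3 had 51.3, 54.7 and 68.8 CPM in KO FT aGC libraries, against 33.6, 40.3 and 44.7 CPM in KO FT PBS libraries, and 73.7, 81.0 and 95.8 CPM in WT FT aGC libraries, against 38.6, 41.6 and 47.7 CPM in WT FT PBS libraries. Neither gene overlapped between treatments, and the log2 changes were 0.49 and 0.53 in KO FT and 0.95 and 0.97 in WT FT mice (adjusted p = 2.61e-08 for Psmg1 in KO FT, 6.55e-14 for Psmg1 and 5.38e-13 for Psmg3 in WT FT). Psmg2 had 88.1, 104 and 114 CPM in KO FT aGC libraries, against 68.8, 78.8 and 87.9 CPM in KO FT PBS libraries, and 110.3, 136 and 164 CPM in WT FT aGC libraries, against 71.8, 85.0 and 93.1 CPM in WT FT PBS libraries, without overlap. Psmg4, the lowest of the 4, had 20.8, 23.4 and 30.9 CPM in KO FT aGC libraries, against 12.9, 18.7 and 26.6 CPM in KO FT PBS libraries, which overlapped, and 36.0, 38.7 and 42.0 CPM in WT FT aGC libraries, against 16.2, 20.7 and 23.4 CPM in WT FT PBS libraries, which did not.

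The chaperones of the regulatory particle base, encoded by Psmd5, Psmd9 and Psmd10, did not pass the test in KO FT mice and rose in WT FT mice. Psmd5 had 183, 192 and 205 CPM in KO FT aGC libraries, against 151, 189 and 219.8 CPM in KO FT PBS libraries, and 220.4, 241 and 246 CPM in WT FT aGC libraries, against 169.9, 197 and 227 CPM in WT FT PBS libraries. Psmd9 had 45.5, 50.5 and 53.9 CPM in KO FT aGC libraries, against 38.6, 50.9 and 60.6 CPM in KO FT PBS libraries, and 64.0, 66.0 and 71.4 CPM in WT FT aGC libraries, against 43.4, 51.1 and 56.7 CPM in WT FT PBS libraries. Psmd10 had 59.5, 62.1 and 71.4 CPM in KO FT aGC libraries, against 50.1, 67.0 and 81.4 CPM in KO FT PBS libraries, and 66.2, 72.3 and 73.3 CPM in WT FT aGC libraries, against 55.5, 65.6 and 77.0 CPM in WT FT PBS libraries. The WT FT log2 changes were 0.28, 0.41 and 0.13 for Psmd5, Psmd9 and Psmd10, of which only that of Psmd9 came with separated libraries. The KO FT changes were 0.06, 0.00 and −0.04 (adjusted p = 0.171, 1 and 0.518). The change differed between KO FT and WT FT mice for all 3, by −0.22, −0.41 and −0.17 (adjusted p = 0.00134, 0.00042 and 0.0455). Psmd10 had a WT FT change of −0.064 in the Cd8a-low libraries alone and of −0.055 with the trend on transcript length removed. Its difference between donors was 0.04 with that trend removed (adjusted p = 0.669).

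The second question was whether the donor of the transplant mattered to cells given aGC. In aGC libraries 46 of the 48 members were lower in KO FT than in WT FT mice and 0 were higher, against a background of 26.5% of all tested genes lower and 25.4% higher. The median log2 difference of the members was −0.41, against 0.00 over all tested genes, and 36 members had all 6 KO FT libraries below all 6 WT FT libraries, as did 9.39% of all tested genes. All 14 core genes were lower (median −0.44), as were all 11 non-ATPase genes, 5 of the 6 ATPase genes and all 7 assembly genes (median −0.42). The members that did not pass were Psmc6, an ATPase gene, at −0.14 ± 0.07 (adjusted p = 0.0784), and Psmb10 at −0.07 ± 0.04 (adjusted p = 0.141). With 1 profile per group, 0 members passed in either direction, as did 0.0% of all tested genes, and the members' median was −0.43.

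Psmc3ip at −0.78, Psmg4 at −0.67 and Psmb6 at −0.60 had the largest differences after aGC (adjusted p = 3.96e-06, 4.31e-06 and 1.2e-09). Psmb6 had 324 to 421 CPM in KO FT aGC libraries and 482 to 549 CPM in WT FT aGC libraries. For the other catalytic genes the log2 difference was −0.46 for Psmb5, −0.31 for Psmb7, −0.33 for Psmb8 and −0.29 for Psmb9, all past the threshold (adjusted p = 3.71e-08, 6.76e-06, 3.17e-08 and 1.05e-06). In the Cd8a-low libraries alone, here aGC males of both donors, 44 members were lower and 0 higher (23.5% and 24.3% of all tested genes). Psmb8 was then at −0.22 (adjusted p = 0.00629), and Psmb9 at −0.05 and Psmb10 at 0.13 did not pass (adjusted p = 0.521 and 0.113). The PA28 genes Psme1 and Psme2 were lower by 0.41 and 0.57 (log2 differences of −0.41 and −0.57, adjusted p = 2.41e-08 and 1.03e-10). Psme2 stood at 909 to 1071 CPM in KO FT aGC libraries and at 1351 to 1516 CPM in WT FT aGC libraries, the largest log2 difference among the 5 immunoproteasome genes.

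**Figure D4:**
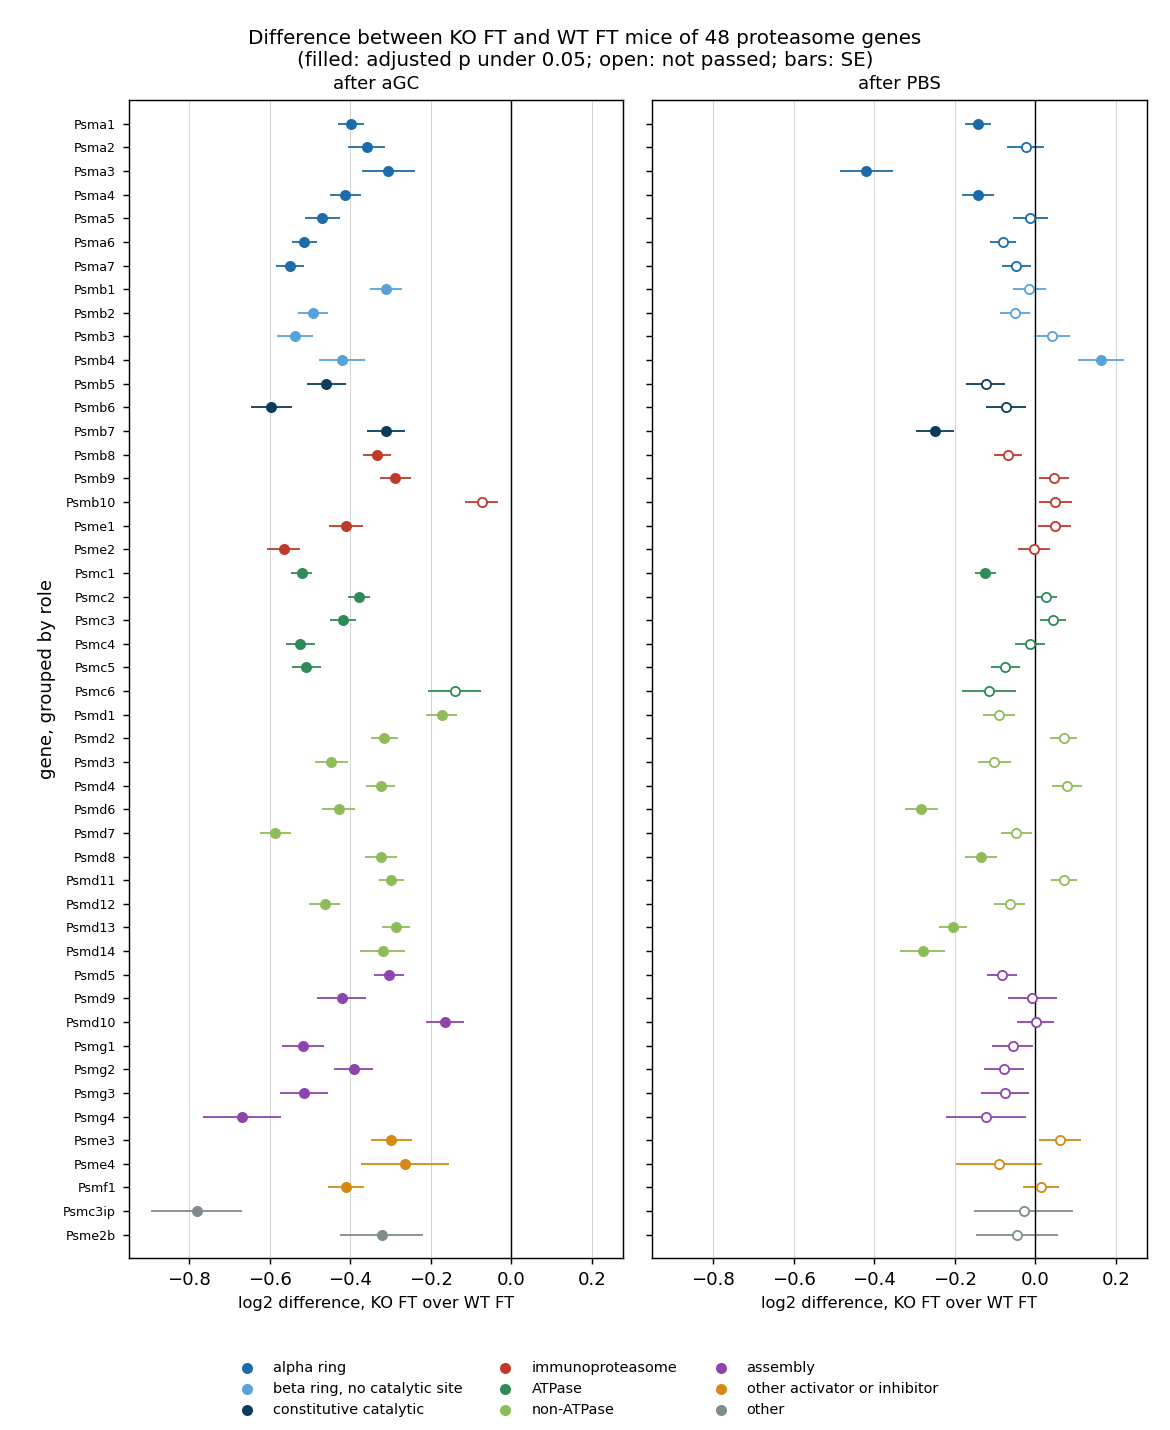
Log2 difference of each proteasome gene between KO FT and WT FT mice with its standard error, after aGC and after PBS, genes grouped by role. After aGC 46 of the 48 members lie below 0 and past the threshold, and after PBS 9 do.

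Transcript length moved with this difference. The members have short transcripts, with a median of 1408 bases, against 2628 over all tested genes, and lie between 555 and 6491 bases. After aGC, the log2 difference between KO FT and WT FT mice had a Spearman correlation with transcript length of 0.574 over the 48 members and 0.307 over 15942 tested genes, as a description across genes, which share their libraries. After PBS the same correlations were 0.037 and 0.0085. With each library's trend on transcript length removed, an alternative added after the data were seen, 40 members were lower after aGC and 1, Psmb10, was higher, with a median of −0.23. In that fit 21.9% of all tested genes were lower and 24.5% higher. Of the 14 core genes, 13 were lower there, with a median of −0.21. Psmb10 then had a log2 difference of 0.17 (adjusted p = 0.000646), and Psmb9 one of −0.05 (adjusted p = 0.164).

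**Figure D5:**
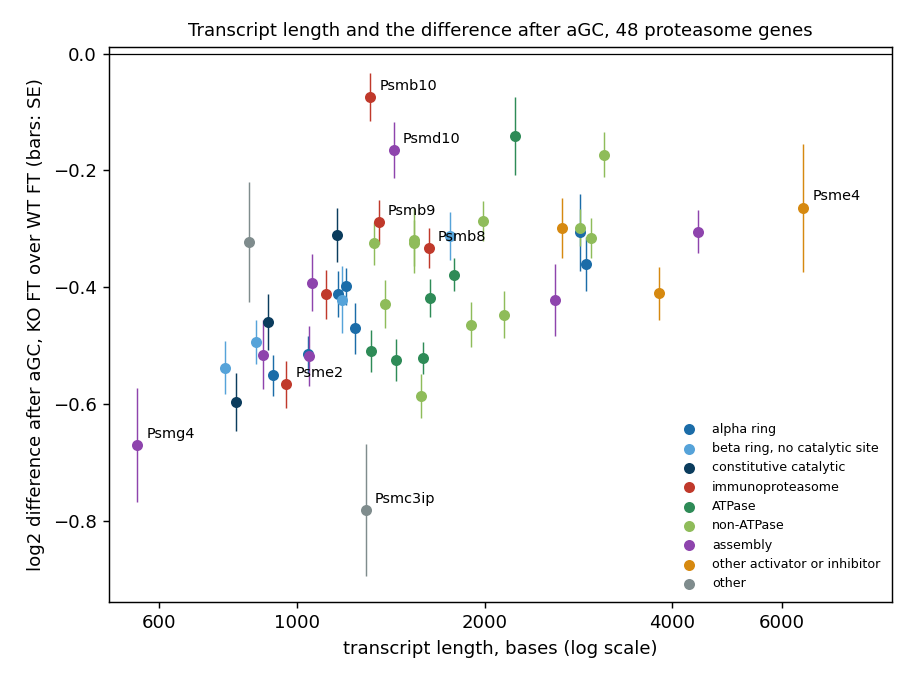
Log2 difference between KO FT and WT FT mice after aGC (vertical axis) against transcript length in bases (horizontal log axis), 1 point per proteasome gene with its standard error, coloured by role. Values tend to be lower at short lengths, with a Spearman correlation of 0.574 over the 48 genes.

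The response to aGC was also set against itself between donors, as the KO FT change minus the WT FT change. It was smaller in KO FT mice for 39 members and larger for 0, against 22.6% of all tested genes lower, 21.9% higher and 44.5% in either direction, with a median of −0.38 against 0.01 over all tested genes. The libraries are those of the comparisons above, so these counts repeat part of them. Psmb3, a core gene without a catalytic site, showed one of the largest gaps. It had 359, 367 and 436 CPM in KO FT aGC libraries, against 271, 328 and 448 CPM in KO FT PBS libraries, and 520.3, 548 and 573 CPM in WT FT aGC libraries, against 306, 332 and 337 CPM in WT FT PBS libraries. Its response differed by −0.58 ± 0.06 (adjusted p = 2.19e-07), that of Psmb4, another core gene, by −0.58 ± 0.08 (adjusted p = 4.44e-06), and that of Psme2 by −0.56 ± 0.06 (adjusted p = 6.36e-08). Psmc3ip had the lowest value, −0.75 ± 0.17 (adjusted p = 0.000803). The members that did not pass were Psma3, Psmb7, Psmb10, Psmc6, Psmd1, Psmd13, Psmd14, Psme4 and Psme2b. With the trend on transcript length removed, 30 were smaller and 1 was larger (19.5% and 21.4% of all tested genes), with a median of −0.19. The differences were then −0.24 for Psmb3, −0.34 for Psmb4, −0.27 for Psme2 and −0.52 for Psmc3ip. In the Cd8a-low libraries alone 42 were smaller (21.5%).

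In PBS libraries few members differed between donors. Here 9 members were lower in KO FT mice and 1 was higher, against 14.8% of all tested genes lower and 14.6% higher, a share of members lower that is near the background. None of the 48 had 6 KO FT PBS libraries wholly above or below the 6 WT FT PBS libraries, against 1.67% and 1.89% of all tested genes. Psma3, an alpha ring gene, had 201, 267 and 358 CPM in KO FT PBS libraries, against 268, 362 and 459.9 CPM in WT FT PBS libraries, and a log2 difference of −0.42 ± 0.07 (adjusted p = 6.08e-05). Psmd6 and Psmd14, a lid subunit gene and the lid's deubiquitinase gene, were at −0.28 each (adjusted p = 2.33e-05 and 0.000726). Psmd6 had 129, 160.0 and 191 CPM in KO FT PBS libraries, against 177, 193 and 214 CPM in WT FT PBS libraries. Psmb4 was the member that was higher, at 0.16 ± 0.06 (adjusted p = 0.0369). Psmb8, Psmb9, Psmb10, Psme1, Psme2 and the 7 assembly genes did not pass. In the fit to the Cd8a-low libraries, whose PBS libraries are all female, 18 members were higher in KO FT mice and 5 lower, against 14.2% of all tested genes higher and 14.9% lower. Those higher included Psmb9, Psmb10, Psme1 and Psme2, at 0.28, 0.36, 0.25 and 0.20 (adjusted p = 0.00484, 0.00114, 0.0141 and 0.0348).

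The average over the sexes covered opposite differences. In PBS females 20 members were higher in KO FT than in WT FT mice and 5 were lower, against 14.9% of all tested genes in each direction. In PBS males 2 were higher and 32 lower, against 21.1% higher and 21.4% lower. Psmb10 had 414, 429 and 448 CPM in KO FT PBS females, against 335, 342 and 325 CPM in WT FT PBS females, and 288, 263 and 281 CPM in KO FT PBS males, against 343, 327 and 328 CPM in WT FT PBS males. After aGC the direction was the same in both sexes, with 41 members lower in KO FT females (24.4% of all tested genes lower, 19.0% higher), 45 lower in KO FT males (22.4% lower, 24.2% higher) and 0 higher in either. The sexes differed in Cd8a in opposite ways in PBS and aGC libraries, as given above, and that part was not tested.

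The response to aGC also differed between the sexes. In KO FT mice it was smaller in females than in males for 37 members and larger for 1, Psmd2, against 25.3% of all tested genes lower, 21.4% higher and 46.7% in either direction. With the WT FT transplant it was smaller in females for 24 and larger for 8, against 24.2% lower, 23.5% higher and 47.7% in either direction. Within each sex, 30 members rose and 7 fell in KO FT females (27.7% and 28.3% of all tested genes), and 40 rose and 1 fell in KO FT males (26.8% and 26.7%). In WT FT females 41 rose and 1 fell (28.6% and 29.8%), and in WT FT males 44 rose and 2 fell (31.7% and 34.9%). All 7 alpha ring genes had the smaller response in females with either donor, by a median of −0.49 in KO FT and −0.60 in WT FT mice.

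Psma3 had the largest gap in KO FT mice and the second largest in WT FT mice. Its libraries held 399.9, 345 and 348 CPM in KO FT aGC females, against 355, 358 and 301 CPM in KO FT PBS females, and 492, 476 and 399 CPM in KO FT aGC males, against 201, 215 and 232 CPM in KO FT PBS males. The WT FT libraries held 436, 379.6 and 375 CPM in aGC females, against 411, 448 and 459.9 CPM in PBS females, and 698, 566 and 652 CPM in aGC males, against 268, 313 and 311 CPM in PBS males. Only the males separated, and the responses differed by −0.97 ± 0.13 in KO FT (adjusted p = 3.5e-06) and −1.25 ± 0.13 in WT FT mice (adjusted p = 5.67e-08). Psme4, the PA200 gene, had 12.3, 10.9 and 12.9 CPM in WT FT aGC females, against 16.5, 16.8 and 24.0 CPM in WT FT PBS females, and 29.6, 33.1 and 40.0 CPM in WT FT aGC males, against 13.3, 15.5 and 14.4 CPM in WT FT PBS males. The sexes moved in opposite directions, with log2 changes of −0.66 in females and 1.25 in males (difference −1.91 ± 0.22, adjusted p = 1.54e-07). Psmb9 likewise had 309, 319 and 298 CPM in WT FT aGC females, against 265, 257 and 264 CPM in WT FT PBS females, and 206, 211 and 229 CPM in WT FT aGC males, against 259, 258 and 277 CPM in WT FT PBS males, with log2 changes of 0.24 in females and −0.30 in males (difference 0.53 ± 0.08, adjusted p = 3.76e-06).

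Genes that work with the proteasome and lie outside the symbol rule were counted in 3 lists. Of 19 tested companions (20 were listed, and Paaf1 was not matched), 15 rose and 1 fell in KO FT mice after aGC (median 0.48), and 14 rose and 1 fell in WT FT mice (median 0.62), against 28.1% of all tested genes higher and 30.1% lower in KO FT and 30.9% and 37.5% in WT FT mice. Pomp, which matures the core, had log2 changes of 0.38 in KO FT and 0.90 in WT FT mice, and Usp14, a deubiquitinase on the particle, of 0.53 and 0.86. Nfe2l1, which encodes Nrf1, the transcription factor that drives proteasome genes when proteolysis is impaired, was at 0.61 in KO FT and 0.21 in WT FT mice. After aGC Nfe2l1 was higher in KO FT than in WT FT mice, by 0.65 on the log2 scale. Over all tested genes that difference between donors had a Spearman correlation of 0.307 with transcript length, as given above. Values with the trend on transcript length removed are not given for these 3 lists. Of the 6 ubiquitin and E1 genes, 4 rose and 1 fell in KO FT mice and 5 rose in WT FT mice, among them Uba6, an E1 enzyme gene, at 1.56 and 1.06.

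Of the 14 class I antigen processing genes, 4 were higher and 9 lower after aGC in KO FT mice (median −0.11). The background there was 28.1% of all tested genes higher and 30.1% lower. In WT FT mice 5 were higher and 5 lower (median −0.01), against 30.9% higher and 37.5% lower. Nlrc5, the class I transactivator gene, was at −0.40 in KO FT and −0.52 in WT FT mice, and H2-D1, a class I heavy chain gene, at −0.41 and −0.30. Tap1, the peptide transporter gene that overlaps Psmb9, was at 0.23 and 0.52, and Tap2, its partner, at −0.33 and −0.27. Between the donors after aGC, 3 companions were higher and 10 lower in KO FT mice (median −0.12), and 1 class I gene was higher and 5 were lower, against 25.4% of all tested genes higher and 26.5% lower.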

How the data were processed

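RNA of sorted iNKT cells was sequenced from 24 libraries (8 groups of 3). The deposited table holds whole-number expected counts per gene that the authors made with kallisto on GRCm38 (mm10), per the submitters' processing notes. The version of kallisto and the annotation are not given in the sources used. Total RNA and Nextera XT libraries, which do not mark strand, are per the labels' protocols. Depth was 9764931 to 37016768 counts a library, and limits derived from it cover counting error only.

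Counts were tested with edgeR 4.0.16 in R 4.3.3 (TMM scaling, minimum count 10 and total 15 in filterByExpr, 8 group means, quasi-likelihood test, two-sided, Benjamini-Hochberg adjustment over 15953 genes, threshold 0.05). DESeq2 1.42.0 was an alternative, run on the same expected counts, already whole. Comparisons across sexes used the mean of both. Standard errors came from the log2 change and its F statistic (change over root F). CPM used TMM-scaled library sizes, and levels per kb the length of 1 GENCODE M21 transcript a gene (the APPRIS principal one, the longest where several). Tables and figures used Python 3.11.15, pandas 2.3.3, scipy 1.17.1 and matplotlib 3.10.9. The main edgeR fit was checked on simulated counts, for aGC against PBS in WT FT mice. The other comparisons and fits were not checked in this way. Promoters are from RefSeq on GRCm38.p6.

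Same-numbered libraries did not deviate together, so the replicate number was not used as a block. The catalytic, PA28, Psme3 and assembly genes are named with their values, with the members that changed most per comparison and a few added after their values were seen. The members and lists were chosen with earlier results of these data known.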

Additional observations from a re-analysis of the deposited data

Results flagged for a closer look

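The response of the proteasome genes to aGC differed between KO FT and WT FT mice in 39 of the 48 members, by the edgeR test of that difference itself. Of all tested genes, 44.5% differed in either direction. The response differed between females and males in 38 members in KO FT mice and in 32 in WT FT mice, against 46.7% and 47.7% of all tested genes. In KO FT mice Psmb3 and Psmd10 fell after aGC in females and rose in males, with log2 differences between the sexes of −0.63 and −0.49. In WT FT mice Psmb9 rose in females and fell in males (log2 difference 0.53), and Psme4 fell in females and rose in males (log2 difference −1.91). After PBS, 22 members had all 3 KO FT libraries on one side of all 3 WT FT libraries in females and on the other side in males. Of these, 20 were higher in KO FT females and lower in KO FT males, and Psmd2 and Psme4 went the opposite way. This difference between the sexes was not tested. The same count was not made over all tested genes, so whether 22 is many for this set is not known.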

How the results depend on the processing

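Counts of members are given as higher or lower in the first-named group. For the fits without the filter, with DESeq2, with 1 library left out and with a block, shares of all tested genes are not given. Those counts show only how far the counts of members moved. Over 827 recomputed counts the value stayed within 1.5 times, and in 73 it moved. With each group summed to 1 profile, 2 rose and 0 fell after aGC in KO FT and 26 rose and 0 fell in WT FT mice, 0 were higher and 0 lower in KO FT mice after PBS, 0 were lower after aGC, and 0 responses were smaller. There residual degrees of freedom fell to 3 by construction and the coefficient of variation was 0.424, against 0.108. The value of 0.424 takes in responses that differ between the sexes, for which that fit has no term. When a fold of 1.5 was also required, after aGC 13 rose and 0 fell in KO FT mice (2410 and 2308 of all 15953 tested genes), 0 fell in WT FT mice (3814), 5 rose and 1 fell in KO FT females (2866 and 2844), and 0 fell in KO FT or WT FT males. Between donors, 4 were lower after aGC (954 of all tested genes), as were 4 in females (1276) and 13 in males (1346), 0 differed after PBS in either direction, averaged or in either sex, and 1 response was smaller (1356). Between the sexes, 0 responses were larger and 10 smaller in KO FT females (2387 and 2718), and 0 larger and 13 smaller in WT FT females (2700 and 2778).

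In PBS females and aGC males alone, an alternative chosen after the data were seen, 7 fell in KO FT and 3 in WT FT mice after aGC, and after PBS 18 were higher and 5 lower in KO FT mice. With fewer libraries there, treatment going with sex, some log2 changes of members named or past the threshold with all libraries turned direction. The list that follows is not complete. After aGC in KO FT mice Psmb1 was at −0.073, Psmb3 at −0.058 and Psmd5 at −0.17, in WT FT mice Psmb8 was at −0.15 and Psmd10 at −0.064, and between donors after PBS Psma7 was at 0.22, Psmd7 at 0.22, Psmd8 at 0.16, Psmd9 at 0.26 and Psme2 at 0.20, as well as Psmc1 at 0.12 and Psmd13 at 0.02. With the length trend removed, also chosen after the data were seen, 3 fell in WT FT mice after aGC (38.5% of all tested genes). Between donors, 3 were higher in KO FT mice after PBS (15.1%) and 1 after aGC (24.5%), and 1 response was larger (21.4%). Psmb8 at −0.11, Psmd10 at −0.055 and Psmd4 at −0.05 turned direction in WT FT mice, as did Psmb10 at 0.17 and Psmd10 at 0.058 between donors after aGC, and Psmb7 at 0.19, Psmd10 at 0.04 and Psmd6 at 0.069 in the response difference. The cause was not tested.

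Without the filter on low counts, 0 fell in KO FT males and 3 in WT FT females after aGC, 0 were higher in KO FT mice after PBS (3 lower in females, 1 higher in males), 1 was higher in KO FT females after aGC, and 0 and 4 responses were larger in KO FT and WT FT females. With DESeq2, or DESeq2's size factors in edgeR, 1 was higher in KO FT females after aGC. Leaving out 1 library at a time gave 38 to 38 members rising and 4 to 4 falling after aGC in KO FT, and 44 to 45 rising and 1 to 1 falling in WT FT mice. Between donors it gave 0 to 1 higher and 9 to 13 lower after PBS, and 44 to 47 lower after aGC. Within the sexes it gave 0 to 2 falling in KO FT males, 1 to 2 in WT FT females, 1 to 6 lower in PBS females, 1 to 2 higher in PBS males, 0 to 1 higher in aGC females and in aGC males, and 1 to 2 responses larger in KO FT females. The PBS females range came from KO FT PBS female replicates 2 (3 lower) and 3 (1 lower), against 5 with all libraries.

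With the replicate number as a block, 38 rose and 4 fell in KO FT and 45 rose and 1 fell in WT FT mice after aGC, 1 was higher and 9 lower between donors after PBS, 45 lower after aGC, and 37 responses were smaller. Libraries share only a number: over 84 same-numbered pairs the correlation of deviations ran from −0.0552 to 0.0915, and 0 exceeded 0.1, against −0.0708 to 0.0647 for other pairs. For single genes 4641 recomputed values stayed, 194 were no longer past the threshold, 51 newly passed, 64 moved and 17 turned direction. The 6 differences in log2 ratio between aGC and PBS stayed without division by length, which by construction shifts all libraries alike. Depth limits levels near 0.307 CPM, far below every member.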
